A study of Mus musculus with 16 samples.

Results

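The miR-29 family was followed in mouse dorsal skin that carried or lacked PPARβ/δ, with and without chronic UV. Its members mmu-miR-29a, mmu-miR-29b and mmu-miR-29c were taken by name, 3 of the 577 miRNAs on the array, with their star (passenger) strands left out of the family. All 3 were detected by the scanner software on all 16 arrays. Chronic UV went with a lower level of miR-29c in both genotypes, by 0.46 on the log2 scale in WT (95% confidence interval −0.76 to −0.16) and by 0.46 in KO (−0.76 to −0.16), each with n = 4 arrays a group. Both calls lay near the threshold. The irradiated and non-irradiated arrays lay on separate slides, so UV and slide cannot be told apart. On the quantile normalized scale miR-29a and miR-29b passed the test in no comparison, although another scaling also called a fall of miR-29a after UV, and no member passed it between genotypes.

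The 16 arrays, each of 1 skin sample, fell into 4 groups of 4. WT mice were Ppard+/+ and KO mice were Ppard-/-, both on the mixed strain SKH1-C57/Bl6-SV129, and Ppard codes for the nuclear receptor PPARβ/δ. The groups WT no UV and KO no UV were not irradiated, whereas WT UV and KO UV received 70 mJ/cm2 of UVB 3 times a week over 12 weeks. The methods describe adult females and irradiated skin without lesions. The labels do not tie a sample to an animal, so the p-values measure the spread between these samples, which may in part be technical. The Ppard-/- genotype is carried by the whole animal, and the arrays read whole skin, in which fewer cells of a type and less RNA per cell cannot be told apart.

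MiR-29 miRNAs are small regulatory RNAs that pair through their seed, near the 5′ end, with messenger RNAs and lower their translation and stability. Their best known targets code for collagens, elastin and other extracellular matrix proteins, and the family is known for a loss of expression in fibrotic tissue and under TGF-β. In skin they have been described in fibroblasts of the dermis and in keratinocytes. The mature sequences are shown because the members share their seed and differ little elsewhere, which bears on what the arrays can tell apart. All 3 were matched in the RefSeq table of build GRCm38.p6, and the capitals mark the seed, bases 2 to 8.

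mmu-miR-29a (Mir29a, minus strand): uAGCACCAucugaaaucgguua
mmu-miR-29b (Mir29b-1, minus strand, and Mir29b-2, plus strand): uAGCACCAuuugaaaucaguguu
mmu-miR-29c (Mir29c, plus strand): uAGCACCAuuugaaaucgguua

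The seed was the same in all 3, and no other of the 1679 mature mouse miRNA names in that table carried it. Counted from 1 at the 5′ end, miR-29a differed from miR-29c at 1 of 22 bases (C10U). MiR-29a differed from miR-29b at 4 of 22 bases (C10U, G18A, U21G and A22U), and miR-29c from miR-29b at 3 (G18A, U21G and A22U), miR-29b being 1 base longer at 23 bases. Mir29a and Mir29b-1 neighbour each other on chromosome 6 and overlap no other gene of the RefSeq list. Mir29b-2 and Mir29c lie on chromosome 1, within the span of the long non-coding RNA gene A330023F24Rik. Mature miR-29b is made from both places, and its signal here is the sum.

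Each member was read by 2 probes with 10 spots each, which share the 3′ end of the miRNA and differ in how far they reach. On build mm9, as the files list it, the miR-29a probes spanned chr6:31012673-31012691 and chr6:31012673-31012692, 19 and 20 of its 22 bases. The miR-29b probes spanned chr1:196863288-196863307 and chr1:196863287-196863307, 20 and 21 of 23 bases, and the miR-29c probes spanned chr1:196863795-196863815 and chr1:196863794-196863815, 21 and 22 of 22 bases. The base at position 10, the single difference between miR-29a and miR-29c, lay within all of these spans, and how much of one miRNA bound to the probes of the other was not tested. No spot of the 6 probes was saturated on any array. The software gave an error of 7.63 to 8.30% of the signal for miR-29a, 8.73 to 9.16% for miR-29b and 7.09 to 7.17% for miR-29c.

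The summed signal of an array lay between 171756 and 395740 units, and 184 to 266 miRNAs were detected per array. The irradiated arrays shared 1 slide and the non-irradiated arrays shared the other, so UV and slide cannot be told apart in any UV comparison. The irradiated slide had a local background of 119 to 130 units against 63.3 to 65.8, and its negative controls spread more (SD 9.10 to 10.3 against 3.66 to 4.25 units). The keratinocyte miRNAs listed for a check of the tissue (miR-203, miR-205 and the miR-200 family) were detected on all 16 arrays, 7 of 7. The skeletal muscle miRNAs (miR-1, miR-133a, miR-133b and miR-206), 4 of 4 detected on all arrays, had a summed normalized signal of 20453 to 41168 in WT no UV, 40655 to 50330 in KO no UV, 21899 to 25985 in WT UV and 19464 to 24489 in KO UV. Levels below are log2 of the quantile normalized signal unless another scale is named, and a difference was called at a limma adjusted p (Benjamini-Hochberg over 228 tested miRNAs) under 0.05.

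MiR-29c, the member called after UV on this scale, read 10.72, 10.97, 10.47 and 10.65 in WT no UV. In WT UV it read 10.22, 10.29, 10.09 and 10.36. Every irradiated WT array lay below every non-irradiated one. In KO no UV it read 10.41, 10.89, 10.97 and 10.79. In KO UV it read 10.18, 10.25, 10.18 and 10.61. These KO groups overlapped through replicate 1 of KO no UV, which was low, and replicate 4 of KO UV, which was high.

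MiR-29a read 13.25, 12.72, 12.72 and 13.01 in WT no UV and 12.85, 12.78, 12.72 and 12.72 in WT UV. It read 12.44, 12.72, 12.72 and 12.62 in KO no UV and 12.85, 12.85, 12.78 and 12.44 in KO UV. All 4 groups overlapped, and the WT no UV arrays held the highest values. Quantile normalization hands out values by rank, and miR-29a held ranks 6 to 15 of 577, so its 16 arrays took only 7 distinct values. Before normalization its signal ran from 4606 to 11403 units.

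MiR-29b read 11.20, 11.20, 10.72 and 11.50 in WT no UV and 10.97, 11.10, 10.97 and 11.04 in WT UV. It read 10.79, 11.20, 10.72 and 11.04 in KO no UV and 10.57, 10.41, 10.41 and 11.20 in KO UV. The WT UV arrays were the closest together, and 3 of the 4 KO UV arrays lay below all others. Replicate 4 of KO UV stood above those 3 for miR-29b and for miR-29c and below them for miR-29a.

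**Figure D1:**
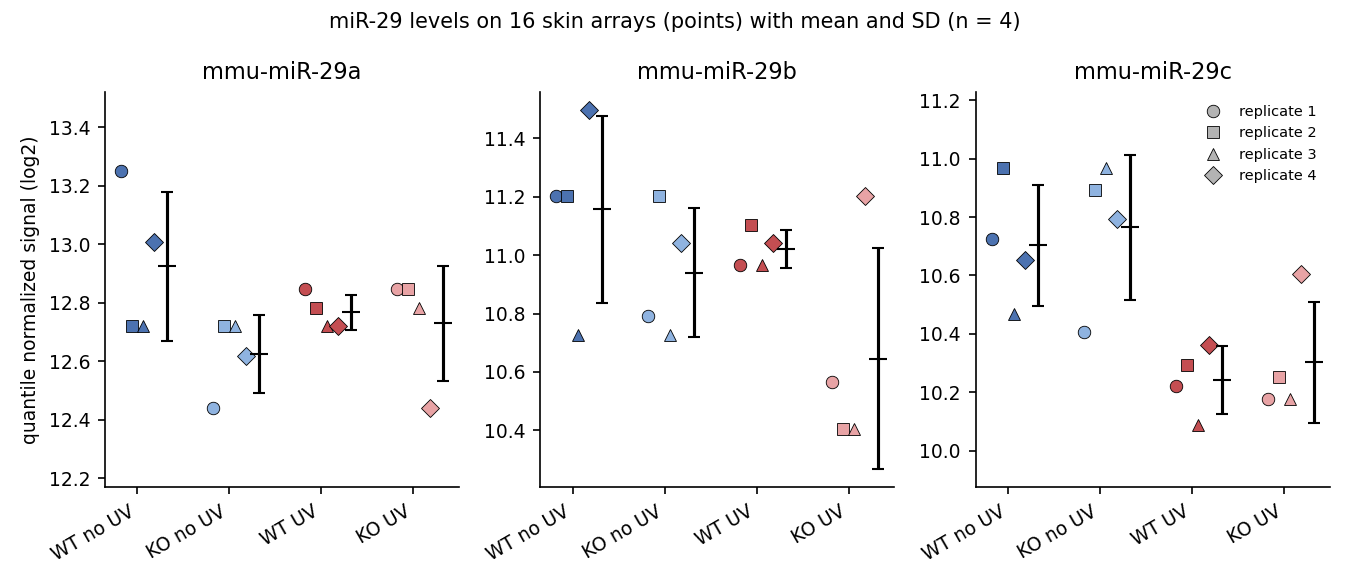
Normalized log2 signal of each member (vertical axes, equal height in log2 units) on the 16 arrays, by group. Points are arrays, with the marker giving the replicate number, and bars are the mean ± SD (n = 4). For miR-29c the WT UV points lie between 10.09 and 10.36, all below the WT no UV points at 10.47 to 10.97.

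The order of group means differed between members. For miR-29a it was WT no UV (12.92 ± 0.25, SD, n = 4), WT UV (12.77 ± 0.06), KO UV (12.73 ± 0.20) and KO no UV (12.62 ± 0.13), and no neighbours in this order differed by more than the larger of their SDs. For miR-29b the order was WT no UV (11.16 ± 0.32), WT UV (11.02 ± 0.07), KO no UV (10.94 ± 0.22) and KO UV (10.65 ± 0.38), again with each step within the larger SD. For miR-29c the 2 non-irradiated groups came first, KO no UV (10.76 ± 0.25) and WT no UV (10.70 ± 0.21), followed by KO UV (10.30 ± 0.21) and WT UV (10.24 ± 0.12). Only the step from WT no UV to KO UV exceeded the larger SD of its neighbours.

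The first question of the design was whether the miRNA depended on PPARβ/δ in skin without irradiation. MiR-29a was 0.30 lower in KO than in WT (SE 0.12, 95% confidence interval −0.56 to −0.04), with a limma adjusted p of 0.252 and an unadjusted p of 0.0283. The miR-29b difference was −0.22 (−0.62 to 0.19) at an adjusted p of 0.640, and that of miR-29c was 0.06 (−0.24 to 0.36) at 0.975. No member was called, and in this comparison limma called 0% of the 228 miRNAs, of which 36 had an unadjusted p under 0.05. At their lower ends the intervals allow a KO level of 0.677-fold for miR-29a, 0.650-fold for miR-29b and 0.848-fold for miR-29c.

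After UV the genotypes also did not separate the members. MiR-29b was 0.37 lower in KO UV than in WT UV (SE 0.19, −0.78 to 0.03, limma adjusted p = 0.561), miR-29a differed by −0.04 (−0.30 to 0.22, adjusted p = 0.991) and miR-29c by 0.06 (−0.24 to 0.36, adjusted p = 0.955). Of all miRNAs tested, 2.19% were called. On the irradiated slide all WT arrays were in the first row and all KO arrays in the second, so row and genotype cannot be told apart there. The KO UV mean of miR-29b rested partly on replicate 4, and without it the value was −0.56 (limma adjusted p = 0.0945).

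The next question was how WT skin differed after 12 weeks of UVB, with the 2 groups on separate slides. MiR-29c fell by 0.46 on the log2 scale (SE 0.14, −0.76 to −0.16), a level 0.726-fold that of WT no UV, at a limma adjusted p of 0.0335. The 2 WT groups did not overlap, which gave an exact two-sided permutation p of 0.0286, the smallest that 4 against 4 arrays can give. The share of all miRNAs whose WT groups separated in this way is not given here, so the separation does not set miR-29c apart. MiR-29a differed by −0.16 (−0.42 to 0.11, adjusted p = 0.437) and miR-29b by −0.14 (−0.54 to 0.27, adjusted p = 0.672). So 1 of 3 members was called, beside 16.2% of all 228 miRNAs, and 7.02% of all were called lower.

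In KO skin UV went with the same size of difference in miR-29c, −0.46 (SE 0.14, −0.76 to −0.16), or 0.726-fold, at a limma adjusted p of 0.0269. Because the KO groups overlapped, the exact permutation p was 0.0571. MiR-29b differed by −0.29 (−0.70 to 0.11, adjusted p = 0.264) and miR-29a by 0.10 (−0.16 to 0.37, adjusted p = 0.543). Again 1 of 3 members was called, beside 29.8% of all miRNAs, with 11.4% of all called lower. Without replicate 4 of KO UV, the array with the highest miR-29b of its group, the miR-29b difference became −0.48 and was called (adjusted p = 0.0335). That fit called 70 of all miRNAs tested in it. It was the only 1 of 16 fits with 1 array left out that called miR-29b here, and the differences ranged from −0.48 to −0.20.

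The direct test of whether the UV effect depended on genotype called no member, beside 2.19% of all miRNAs. The difference between the UV effects, WT minus KO, was −0.26 for miR-29a (−0.63 to 0.11, limma adjusted p = 0.585) and 0.16 for miR-29b (−0.41 to 0.73, adjusted p = 0.868). For miR-29c the estimate was close to 0, with an interval of −0.42 to 0.42 around it.

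**Figure D2:**
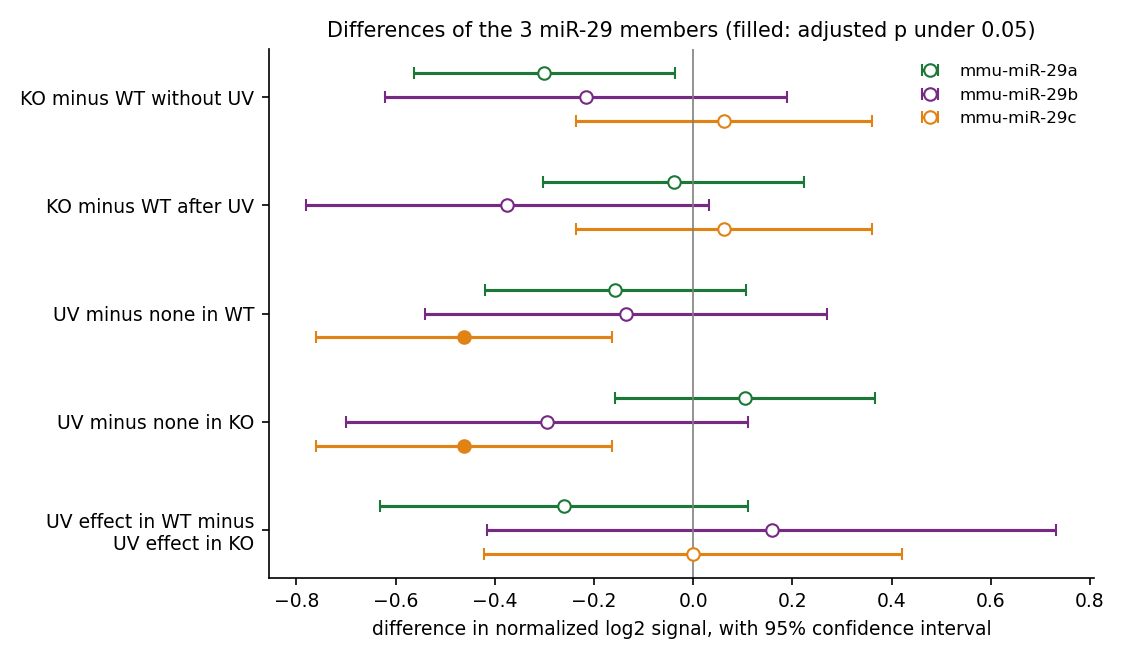
Differences in normalized log2 signal of the 3 members (horizontal axis) in the 5 comparisons, as points with 95% confidence intervals from limma. Filled points are called at an adjusted p under 0.05, which are miR-29c after UV in WT and in KO, both at −0.46.

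The miR-29c calls lay near the threshold. In WT the call ended when replicate 1, 2 or 3 of WT UV or replicate 1, 2 or 4 of WT no UV was left out, with adjusted p-values of 0.0562 to 0.0938 and differences of −0.48 to −0.37. In KO it ended without replicate 1, 2 or 3 of KO UV or replicate 2 or 3 of KO no UV, with adjusted p-values of 0.0628 to 0.0821 and differences of −0.44 to −0.39. The fall was present in all of the leave-one-out fits, from −0.54 to −0.37 in WT and from −0.59 to −0.39 in KO. A slide row covariate gave differences of −0.48 for WT and −0.45 for KO, with adjusted p-values of 0.0776 and 0.0850.

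Both miR-29c probes gave the fall when read alone. On signals scaled to each array's 75th percentile, the 21-base probe differed by −0.52 in WT and −0.54 in KO, and the 22-base probe by −0.56 and −0.54. The WT groups did not overlap for either probe (exact permutation p = 0.0286 each), and the KO groups overlapped for both (p = 0.0571 each). The shorter probe carried 45.2 to 49.2% of the miR-29c signal and the longer probe the rest. With so steady a split on the same arrays, the 2 probes are not independent readings of the fall. Nor was the separation in WT particular to miR-29c. On this scale the WT groups did not overlap for either miR-29a probe (−0.44 and −0.37, exact permutation p = 0.0286 each). The share of all miRNAs that separated in this way is not given here. For miR-29b the 21-base probe carried 84.6 to 90.7% of the signal, and the WT groups overlapped for both probes.

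The scaling between arrays mattered most for miR-29a. When each array was scaled, without ranks, by its 75th percentile over the 167 miRNAs that every array detected, miR-29a read 7471 to 9298 units in WT no UV and 5714 to 6819 in WT UV. Those groups did not overlap, and miR-29a was then 0.39 lower after UV in WT (limma adjusted p = 0.0185). It was 0.33 lower in KO (adjusted p = 0.0325), where the quantile scale gave a difference of 0.10 in the other direction. Under this scaling the median of all tested miRNAs shifted by −0.10 in WT and −0.04 in KO. The same scaling called 40 of all 228 miRNAs after UV in WT and 55 in KO. The share of all miRNAs whose groups separated is not given here, so the separation does not set a member apart. MiR-29c read 1409 to 2200 units in WT no UV against 1072 to 1268 in WT UV, and 1300 to 2041 in KO no UV against 1055 to 1509 in KO UV, and stayed called in both genotypes. MiR-29b differed by −0.35 in WT (adjusted p = 0.247) and −0.33 in KO (adjusted p = 0.261). With no normalization miR-29c differed by −0.15 in WT (adjusted p = 0.720) and −1.01 in KO (adjusted p = 0.0060), while the median of all tested miRNAs moved by 0.21 and −0.48. That setting called 43 of all 228 miRNAs after UV in WT and 130 in KO.

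**Figure D3:**
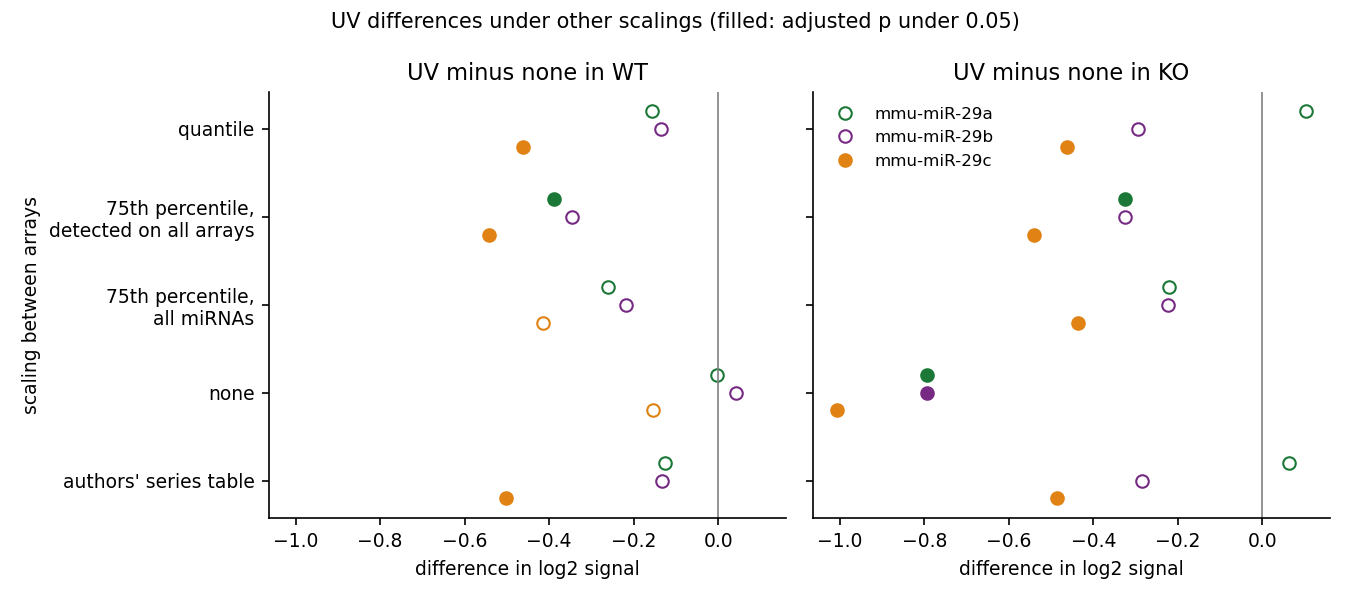
UV minus no UV difference in log2 signal (horizontal axes) for each member in WT and in KO under 5 ways of scaling the arrays, with filled points called at an adjusted p under 0.05. MiR-29c lies below 0 in every row, and miR-29a in KO moves from 0.10 under quantiles to −0.33 under the first of the 75th percentile scalings.

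As a share of the summed signal of its array, the family together took 4.75% ± 0.50 (SD, n = 4) in WT no UV and 4.15% ± 0.32 in KO no UV. It took 3.86% ± 0.34 in WT UV and 3.53% ± 0.15 in KO UV. These shares were not tested, and they depend on what the brightest miRNAs of each array did.

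Comparing members on the same array removes the scaling between arrays. Over the 12 tests (3 pairs in 4 comparisons, on signals before normalization), none passed after adjustment, with a lowest adjusted p of 0.343. With 4 against 4 arrays the smallest exact permutation p is 0.0286, and the 1 test at that value reached only 0.343. A single separated comparison could therefore not pass, and the adjusted result decides little. Only for miR-29c over miR-29b between genotypes after UV did the groups not overlap, although the difference was not the largest of the 12. That log2 difference was −0.57, −0.80, −0.66 and −0.61 on the WT UV arrays. It was −0.32, −0.33, −0.41 and −0.51 on the KO UV arrays. These groups did not overlap, and KO UV lay 0.27 above WT UV (exact permutation p = 0.0286, adjusted p = 0.343 over the 12). Without UV the same genotype difference was 0.29, with overlap (exact permutation p = 0.0857). For miR-29c over miR-29a the UV difference was −0.15 in WT and −0.21 in KO, each at an exact p of 0.257. Even before adjustment, the fall of miR-29c within arrays was thus not shown to differ from the change of miR-29a.

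**Figure D4:**
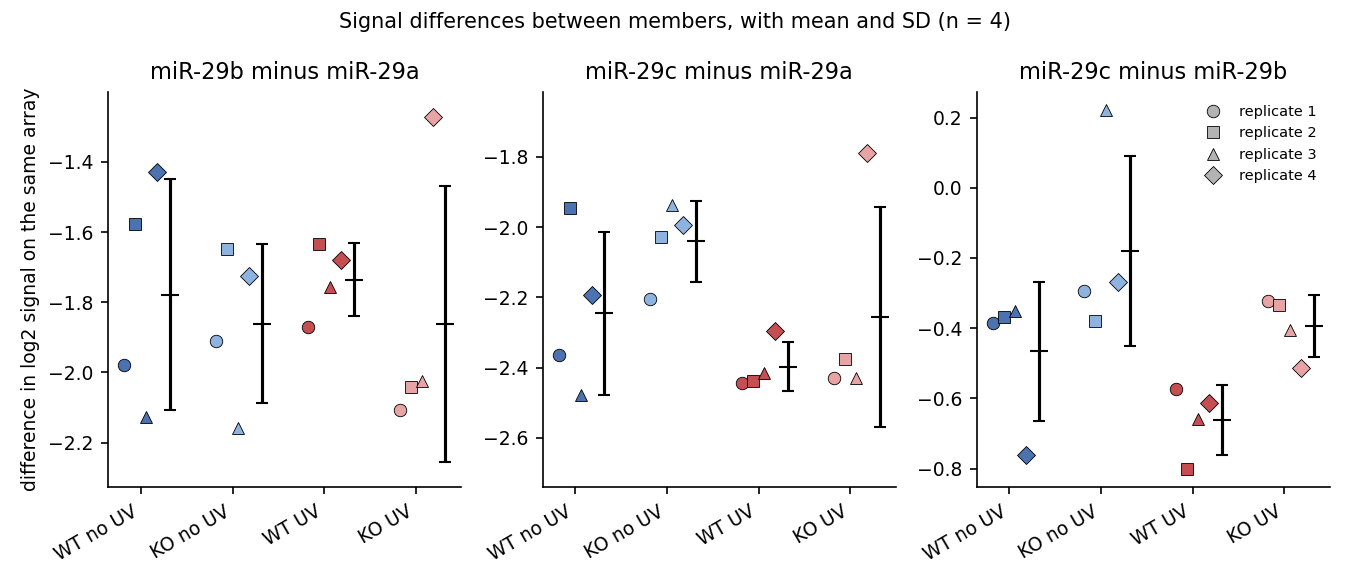
Difference in log2 signal between 2 members on the same array (vertical axes, equal height in log2 units), by group, with the mean ± SD (n = 4). For miR-29c minus miR-29b the WT UV points, from −0.80 to −0.57, lie below all KO UV points, from −0.51 to −0.32.

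The star strands, which come from the other arm of the same hairpins, were dim. MiR-29a* was detected on 6 of 16 arrays and miR-29b* on 10, and both sat at the floor of the normalized scale on every array. MiR-29c* was detected on all 4 arrays of WT no UV and of KO no UV, on 3 of WT UV and on 2 of KO UV, at 21.7 to 74.6 units before normalization. Its normalized log2 level was 5.26, 5.54, 5.88 and 5.62 in KO no UV. It was 5.22, 5.12, 4.72 and 5.02 in KO UV. Those groups did not overlap, and miR-29c* was 0.56 lower after UV in KO (SE 0.18, limma adjusted p = 0.0391). In WT it was 0.39 lower, with overlapping groups and an adjusted p of 0.162. MiR-29c* entered the tests only through the non-irradiated groups, where it was higher and detected on all 4 arrays. These differences therefore cannot serve as support for a fall after UV. The higher noise of the irradiated slide moved with these detection calls, and its part in them was not tested.

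Over all 16 arrays, miR-29c and miR-29b had a Pearson r of 0.50, miR-29b and miR-29a of 0.13, and miR-29c and miR-29a of −0.01 on the quantile scale. On signals scaled to the 75th percentile the same pairs gave 0.75, 0.63 and 0.77. These are descriptions over arrays that share slides and, for the second scale, a scaling factor. Among the 164 other miRNAs detected on all arrays, the most like miR-29c on the quantile scale were miR-26b (r = 0.90), miR-30b (0.89) and miR-22* (0.85). Those most like miR-29b were miR-101a (0.88), miR-142-5p (0.87) and miR-142-3p (0.86), and those most like miR-29a were miR-425 (0.78), miR-34a (0.67) and let-7a (0.65). The median r over these miRNAs was −0.05 for miR-29a, −0.07 for miR-29b and −0.05 for miR-29c.

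With group means removed, miR-29b still varied most like miR-142-5p (r = 0.88), miR-142-3p (0.87) and miR-101a (0.86). MiR-142, made in blood cells, is on the leukocyte list used here, whose summed normalized signal was 4501 to 5929 in WT no UV, 2737 to 4472 in KO no UV, 3395 to 4238 in WT UV and 2920 to 3442 in KO UV. MiR-29c varied most like miR-22* (0.86), miR-26b (0.84) and miR-199b* (0.76), and miR-29a most like miR-140 (0.83), miR-152 (0.82) and miR-22 (0.80). The part of leukocyte content in the miR-29b levels was not tested.

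Other miRNAs tied to fibrosis and TGF-β signalling were set beside the family as a list of 18, of which 17 were on the array and tested. No listed miRNA passed the test between genotypes, beside 0% of all 228 miRNAs in the non-irradiated and 2.19% in the irradiated groups. With shares this low, no call in a list of 17 says little about the list. After UV in WT 4 of 17 rose and 1 fell, beside 9.21% of all 228 miRNAs called higher and 7.02% called lower, with a list median difference of 0.09 against 0 over all tested miRNAs. The 4 that rose were miR-141 (0.80), miR-200b (0.44), miR-200c (0.83) and miR-429 (0.53), epithelial miRNAs that restrain the mesenchymal programme, and miR-145 of smooth muscle fell by 0.93. In KO 8 of 17 rose and 5 fell, beside 18.4% of all called higher and 11.4% called lower, with a list median of 0.13 against 0 over all. Among those that rose were miR-21, which is induced by TGF-β (0.68), miR-155 of inflammation (0.65), miR-192 (0.59) and the fibroblast miR-214 (0.32), together with the same 4 epithelial miRNAs. Those that fell in KO were the smooth muscle miR-145 (−1.66) and miR-143 (−0.79), the skeletal muscle miR-133a (−1.25) and miR-133b (−1.08), and miR-30c (−0.34). The direct test of whether the UV effect depended on genotype called 0 of the 17, beside 2.19% of all miRNAs. The unlike counts in WT and KO are thus not shown to be a dependence on genotype.

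Markers of several cell types were called after irradiation beside the fall of miR-29c. Their counts stand beside 9.21% of all miRNAs called higher and 7.02% called lower in WT, and 18.4% higher and 11.4% lower in KO, and with lists of 2 to 7 a single called miRNA says little about a list. Of the 7 keratinocyte miRNAs, 4 rose in WT and 6 in KO, and their summed normalized signal went from 21539 to 25477 in WT no UV and 22225 to 27764 in KO no UV to 26081 to 31708 in WT UV and 29320 to 43027 in KO UV. All 4 skeletal muscle miRNAs fell in KO and none passed the test in WT. The direct test of whether the UV effect depended on genotype called 0 of these 4. Their median difference, KO minus WT, was 0.73 without UV and −0.22 after UV, and none was called between genotypes. Of the 6 fibroblast and vessel miRNAs tested, 1 rose and 1 fell in WT, and 1 rose and 2 fell in KO. Of the 5 leukocyte miRNAs 2 fell in WT and 1 fell in KO, and of the 2 erythrocyte miRNAs tested 1 fell in KO. The part of these shifts in the miR-29c result was not tested.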

How the data were processed

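Dorsal skin RNA (100 ng, isolated with TRIzol) was labelled with Cy3 and hybridised to 1-colour Agilent mouse miRNA arrays. Per the file headers, Agilent Feature Extraction 9.5.3.1 made the deposited intensity values, subtracting a fitted background from each spot and summing spots into a total signal per miRNA with a detection call, with no normalization between arrays. The methods name a later array release than the files do. An alternative used the deposited series table, in which the authors give normalized log2 values with an unstated offset.

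Total signals were quantile normalized (limma 3.58.1, R 4.3.3), floored at 19.4 units (4.28 on the log2 scale; the 5th percentile of an array's detected signals, as a median of the arrays) and log2 transformed, so changes of dim miRNAs are understated. A miRNA was tested when detected on all 4 arrays of a group, which left 228 miRNAs, 167 of them seen on every one of the 16 arrays. A single group-means model gave 5 contrasts, with 12 residual and 0.802 prior degrees of freedom. Ratios between members on an array were compared by exact two-sided permutation tests, adjusted over 12. Named miRNAs were the members, their star strands, the 3 miRNAs most like each member and the called miRNAs of a fibrosis list. The members and lists were chosen with earlier results of these data known. Groups and replicate numbers came from the sample titles. Scripts were tested on simulated data. Arrays of a group correlated at 0.969 to 0.995 over miRNAs, and none was a duplicate. The number of arrays limits the precision.

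Alternatives varied scaling, signal, filter, floor, replicate block, slide row, fitted arrays, threshold and test, and dropped single arrays.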

Additional observations from a re-analysis of the deposited data

Results flagged for a closer look

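MiR-29a in KO UV replicate 4 stood apart from the other 3 arrays of its group, at a normalized log2 signal of 12.44 against 12.78 to 12.85. Its gap to the nearest array was 0.839 of the group's range, above Dixon's 95% critical value for 4 samples. The normalized values are handed out by rank, and replicates 1 and 2 were tied, so this critical value is only a rough guide. It was the 1 such case among 12 groups of 4 values, and for values not set by rank chance flags about 1 in 20 groups. On signals scaled to the 75th percentile the same array read 5211 units against 5684 to 6271, and before normalization 4606 against 4750 to 5587. On both of these scales the gap was a smaller part of the group's range. On that array miR-29b and miR-29c were the highest of their group, at 11.20 and 10.61. Without it the KO minus WT difference of miR-29a after UV was 0.06.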

How the results depend on the processing

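Among the 15 member comparisons, the fall of miR-29c after UV kept its direction under every alternative run. So did differences that were not called on the main scale, namely miR-29a after UV in WT, miR-29b after UV in KO and miR-29b between genotypes after UV. The miR-29c call in WT ended under the 75th percentile of all miRNAs (−0.41), no normalization (−0.15), slide row as a covariate (−0.48) and the methods' threshold (unadjusted p under 0.001 and 1.5-fold, −0.46). In KO it ended with only the groups compared (−0.46), slide row (−0.45), the methods' threshold (−0.46) and the exact permutation test (−0.46). With 1 array left out it ranged from −0.54 to −0.37 in WT and from −0.59 to −0.39 in KO. The 75th percentile of miRNAs detected on all arrays called miR-29a after UV in WT (−0.39), turned and called it in KO (−0.33), and reversed miR-29b in the interaction (−0.020). The 75th percentile of all miRNAs turned miR-29a after UV in KO (−0.22), miR-29c between genotypes after UV (−0.00389) and miR-29c in the interaction (0.023). Without normalization, which moved the median of all miRNAs by −0.48 to 0.77, miR-29a was turned between genotypes without UV (0.36), and turned and called after UV in KO (−0.79, adjusted p = 0.0039) and in the interaction (0.79, adjusted p = 0.0245). The same setting turned miR-29b between genotypes without UV (0.28) and after UV in WT (0.041), called it after UV in KO (−0.79), and turned miR-29c between genotypes after UV (−0.28) and in the interaction (0.85). Normexp turned miR-29c between genotypes after UV (−0.00892) and in the interaction (0.13), and processed spot signals the latter (0.011). The cause of these changes was not tested.

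Leaving out 1 array gave −0.081 to 0.058 for miR-29a between genotypes after UV, −0.48 to −0.20 for miR-29b after UV in KO, −0.016 to 0.18 for miR-29c between genotypes without UV, −0.041 to 0.11 after UV, and −0.077 to 0.12 in its interaction. Differences that were not called and kept their direction also moved, with miR-29a from −0.38 to −0.19 and miR-29b from −0.36 to −0.10 between genotypes without UV, and miR-29b from −0.56 to −0.30 after UV. After UV in WT miR-29a ranged from −0.23 to −0.052 and miR-29b from −0.28 to −0.018, after UV in KO miR-29a from 0.046 to 0.20, and in the interaction miR-29a from −0.36 to −0.15 and miR-29b from 0.0094 to 0.35. Within arrays, miR-29b minus miR-29a between genotypes without UV turned to 0.084 on quantile normalized signals. With 1 array left out that difference ranged from −0.20 to 0.034 without UV, from −0.20 to 0.082 for UV in KO and from −0.073 to 0.16 for UV in WT. MiR-29c minus miR-29a between genotypes after UV ranged from −0.014 to 0.20.

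The replicate number as a block changed no member's call (miR-29c adjusted p = 0.0350 in WT and 0.0305 in KO) and gave 40 and 61 called miRNAs for UV in WT and KO against 37 and 68, and 1 against 5 for the interaction. Same-numbered arrays of different groups correlated at −0.38 to 0.46 in their deviations from group means, over 0.1 in 16 of 24 pairs. The correlation was over 0.1 in 4 of 4 pairs of KO no UV and WT UV (0.23 to 0.46), and in WT UV and KO UV in 3 of 4 (0.09 to 0.35), where all 4 WT UV arrays correlated best with the KO UV array of their own number, which lay in the same slide column. The labels do not say what a number stands for and not every pair passed 0.1, and the block was kept as an alternative.

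Counts of all miRNAs called ranged over the other settings from 0 to 111 (0 reported) between genotypes without UV, from 0 to 5 (5 reported) after UV, from 15 to 58 (37 reported) for UV in WT, from 16 to 130 (68 reported) for UV in KO and from 0 to 138 (5 reported) for the interaction. With 1 array left out they ranged from 0 to 16, 5 to 7, 30 to 43, 35 to 70 and 1 to 12.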
